A study of Homo sapiens with 28 samples.

Results

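Alternative 3' splice site events are pairs of splice junctions that leave the same exon and join it to either of 2 acceptor sites downstream. They were taken as every row of the splicing table whose event class reads exactly alt-3', which gave 7168 of 100814 rows. Because 2621 pairs were listed in both orders, the rows held 4547 different junction pairs of 77920 in the whole table, in 3462 genes. Alternative 5' splice sites, the mirror class, held 3625 pairs. The cells were MOLM13, an acute myeloid leukemia line labelled with the MLL-AF9 translocation, and MV4;11, an acute myeloid leukemia line labelled with MLL-AF4. Each received a lentiviral hairpin against MBNL1, number 64 or 65, or a non-targeting hairpin (shNT), and was selected with puromycin, and total RNA was sequenced from 28 libraries. MOLM13 with hairpin 64 at day 12 (3 libraries) was set against shNT at day 12 (3 libraries). MOLM13 with hairpin 64 at day 4 (3 libraries) was set against its own shNT (3 libraries), and MOLM13 with hairpin 65 (4 libraries) against a second shNT set (3 libraries). MV4;11 with hairpin 64 and with hairpin 65 (3 libraries each) shared 3 shNT libraries. The day 12 libraries were read on a different sequencer, so day and sequencer cannot be told apart. The day 4 of the earlier set comes from the study's results, while the labels of the hairpin 65 and MV4;11 sets give no day. The labels do not state whether replicates of these earlier sets came from separate cultures, and their p-values may therefore reflect technical spread alone.

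A 3' splice site is read from a branch point, a tract of pyrimidines and a final AG. The protein U2AF binds the tract and the AG, and the spliceosome then joins the upstream exon to the first base after the AG. Where an intron offers a choice of AGs, the nearer one gives a shorter junction and a longer exon, and the farther one gives a longer junction and a shorter exon. Tandem acceptors 3 bases apart (NAGNAG sites) add or remove a single amino acid in coding sequence. MBNL1, a muscleblind zinc finger protein, binds RNA at short motifs with a GC core flanked by pyrimidines. In myotonic dystrophy it is held on expanded CUG repeats, and exons that depend on it are then misspliced. The unit used here is the share of the shorter junction, that is, the percent spliced in (PSI) of the nearer acceptor within its pair, so a positive difference means that the knockdown used the nearer acceptor more. Read depth behind each PSI value is unknown, and no counting interval is given.

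The acceptors on which the results turn are printed in GRCh37, 5' to 3' along the transcript, as the last 20 intron bases and the first 3 exon bases, with the acceptor AG in capitals. FAM122B, GIT2 and MLST8 are shown because their pairs were called in 4 or 5 comparisons. ODF2 had the lowest adjusted p of any pair at day 12, and RALGAPB and PLEKHG2 show close and tandem acceptors. The windows are chrX:133906311-133906333 and chrX:133905382-133905404 for FAM122B (minus strand), chr12:110386649-110386671 and chr12:110385307-110385329 for GIT2 (minus), chr16:2258191-2258213 and chr16:2258431-2258453 for MLST8 (plus), chr9:131222772-131222794 and chr9:131222809-131222831 for ODF2 (plus), chr20:37163697-37163719 and chr20:37163709-37163731 for RALGAPB (plus), and chr19:39905609-39905631 and chr19:39905612-39905634 for PLEKHG2 (plus).
FAM122B nearer: tctttttgctttgtcttcAGttc
FAM122B farther: aatattgttgatatttctAGgtg
GIT2 nearer: tgatctttcacatttaacAGttg
GIT2 farther: ctgccaaacatttctttcAGctt
MLST8 nearer: acggtcctcctgacctctAGgga
MLST8 farther: gccccatgcccacccactAGgct
ODF2 nearer: cccagtttactcatccacAGatc
ODF2 farther: tgtcctcccccacctgccAGaag
RALGAPB nearer: gcattggggttatatcctAGctc
RALGAPB farther: tatcctagctcttaatacAGatt
PLEKHG2 nearer: cctcctgttccacaccccAGcag
PLEKHG2 farther: cctgttccacaccccagcAGctc
The 12 windows all end their introns in AG, and in RALGAPB and PLEKHG2 the nearer AG lies inside the window of the farther one.

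The class held close tandem sites and pairs far apart side by side. The distance between the 2 acceptors ran from 2 to 478840 bases with a median of 46. Distances of 2 to 6 bases made up 26.1% of the pairs, 7 to 30 bases 14.8%, 31 to 150 bases 32.6%, and more than 150 bases 26.5%. The single most frequent kind was the tandem acceptor 3 bases apart, with 882 pairs (19.4%), against 127 pairs 4 bases apart and 111 pairs 5 bases apart. A multiple of 3 separated the acceptors in 46.8% of all pairs and in 33.5% of the 2688 pairs more than 30 bases apart. AG stood at 4532 nearer (99.7%) and 4540 farther acceptors (99.8%). By the GENCODE 44 annotation on GRCh37, the stretch between the acceptors touched coding sequence in 71.0% of pairs, untranslated sequence alone in 11.3% and noncoding exons in 13.3%. The nearer acceptor was annotated in 91.2% of pairs and the farther in 71.7%.

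The event class was checked against annotated exons. In 80.6% of pairs an annotated exon begins at the nearer acceptor and runs through the farther one, which is what the class name says. In 483 pairs (10.6%) the acceptors opened separate annotated exons, and in 400 pairs (8.80%) no annotated exon began at the nearer acceptor. Counting also the pairs with both kinds of transcript, 992 (21.8%) had an annotated exon that begins at the nearer acceptor and ends before the farther one. For these pairs a gain of the nearer acceptor can be a longer exon or an included separate exon, and the 2 junctions alone do not tell which. FAM122B, GIT2, MLST8, PDLIM7, CAPN3, BMP1, CARM1, ARL16, POU2F2, U2AF1L4, CTTN and HIST1H2BN, described below, are all of this kind.

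Library checks showed no copied library. The PSI values of any 2 libraries correlated at 0.939 to 0.980 across alt-3' pairs, and 0 pairs of libraries held identical values. MBNL1 itself stood at 4.13 to 4.65 RPKM with hairpin 64 at day 12, against 25.6 to 26.9 in shNT, and at 2.94 to 3.8 RPKM with hairpin 64 at day 4, against 18.8 to 28.6 in shNT. With hairpin 65 in MOLM13 MBNL1 stood at 8.26 to 15.4 RPKM, against 17.5 to 20.2 in the second shNT set. This fall was not called (log2 change -0.57, limma adjusted p = 0.209), unlike the fall of MBNL1 in every other comparison. In MV4;11 MBNL1 stood at 3.54 to 3.98 RPKM with hairpin 64 and 10.7 to 12.8 with hairpin 65, against 18.5 to 25.4 in shNT, so hairpin 65 left more MBNL1 RNA in both lines. Of 12 myeloid markers, 9 averaged at least 1 RPKM over the 28 libraries (their sum was 1054 to 4302 RPKM, mostly LYZ), against 1 of 9 erythroid and megakaryocytic markers (sum 1.22 to 5.90) and 1 of 8 lymphoid markers (sum 0.463 to 13.8).

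The mean choice of acceptor stayed in a narrow range across libraries. Over the 2707 pairs measured in all 28 libraries, the mean share of the shorter junction lay between 61.2% and 62.9% in every library, and over the 538 tandem pairs among them between 57.3% and 59.5%. The mean over all pairs was 62.2% ± 0.178 with hairpin 64 at day 12, against 62.5% ± 0.0281 in shNT (SD, n = 3 each). At day 4 it was 61.6% ± 0.372 with hairpin 64, against 62.2% ± 0.398 in shNT (SD, n = 3 each), and each hairpin library lay under the shNT library of the same number (61.7%, 61.9% and 61.2%, against 62.4%, 62.4% and 61.7%), a difference that was not tested. With hairpin 65 in MOLM13 it was 62.5% ± 0.185 (n = 4), against 62.3% ± 0.315 (n = 3), and in MV4;11 it was 62.1% ± 0.0598 with hairpin 64 and 62.8% ± 0.168 with hairpin 65, against 62.5% ± 0.163 in shNT (SD, n = 3 each). The median difference over all tested pairs lay between -0.202 and 0 points in the 5 comparisons.

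A small share of pairs changed, in both directions. A pair was called when limma gave an unadjusted p of at most 0.01 and the mean share differed by more than 10 points, and over 50% of the libraries in both groups had to hold a value. Called events were 44 of 3432 alt-3' pairs for hairpin 64 in MOLM13 at day 4, which is 1.28%, against 1.56% of all event types. They were 34 of 3408 for hairpin 65 in MOLM13 (0.998%, against 1.08% of all types), 34 of 3493 for hairpin 64 in MV4;11 (0.973%, against 1.5%), and 42 of 3516 for hairpin 65 in MV4;11 (1.19%, against 0.801%). At day 12 they were 61 of 3718 (1.64%, against 2.05%). Alternative 5' splice sites gave 1.32%, 0.702%, 1.51%, 0.988% and 1.77% in the same order. The alt-3' share was thus below that of all event types in 4 comparisons and above it for hairpin 65 in MV4;11, and no test of that difference was made. One called pair on chromosome Y in the hairpin 65 comparison in MOLM13 is counted here. Chromosome Y is also in the counts of that comparison under other controls, sizes or p thresholds. The pair is left out of the other counts and of the named pairs below.

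By direction, hairpin 64 at day 4 moved 19 pairs toward the shorter junction and 25 toward the longer one, where 0.843% and 0.72% of all event types were called so. With the replicate number as a block, which the day 4 libraries support clearly only for number 3, the counts were 8 and 21. Hairpin 65 in MOLM13 moved 20 pairs toward the shorter and 13 toward the longer junction (all types 0.726% and 0.353%). With chromosome Y included the counts were 21 and 13, and they moved with the controls used. On that basis they were 39 and 34 without one library of the second shNT set, 13 and 14 without another, and 14 and 15 with all 6 MOLM13 shNT libraries of the earlier sets. Hairpin 64 in MV4;11 moved 18 and 16 (all types 0.73% and 0.765%), and hairpin 65 there moved 24 and 18 (0.455% and 0.346%). At day 12 the counts were 26 and 35 (1.06% and 0.992%). Direction was set by junction length in every event class, and in other classes a shorter junction is not a nearer acceptor. The shares of all types are therefore not a like measure. Alternative 5' splice sites gave 0.382% shorter and 0.939% longer at day 4, and 0.491% and 0.211% with hairpin 65 in MOLM13. In MV4;11 they gave 0.617% and 0.891% with hairpin 64 and 0.511% and 0.477% with hairpin 65, and at day 12 0.676% and 1.09%. The median size of a called change was 18.8, 18.4, 17.7, 16.4 and 14.5 points in that order of comparisons. After Benjamini-Hochberg adjustment over all event types, limma kept 3 pairs at day 4, 4 for hairpin 64 and 2 for hairpin 65 in MV4;11 and 18 at day 12 under an adjusted p of 0.05, where it kept 0.235%, 0.231%, 0.0209% and 0.694% of all event types. For hairpin 65 in MOLM13 limma kept 0 pairs and 0.0217% of all types, while 248 pairs had an unadjusted p under 0.05 and the lowest adjusted p was 0.0617. Non-overlap of the 2 groups, which is given beside single genes below, was itself frequent. It was also required of pairs named for the largest changes of a comparison, so for those pairs it adds no support. It held for 11.6% of all event types with hairpin 64 at day 4, 7.17% with hairpin 65 in MOLM13, 10.7% and 8.32% with hairpins 64 and 65 in MV4;11 and 13.7% at day 12.

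**Figure D1:**
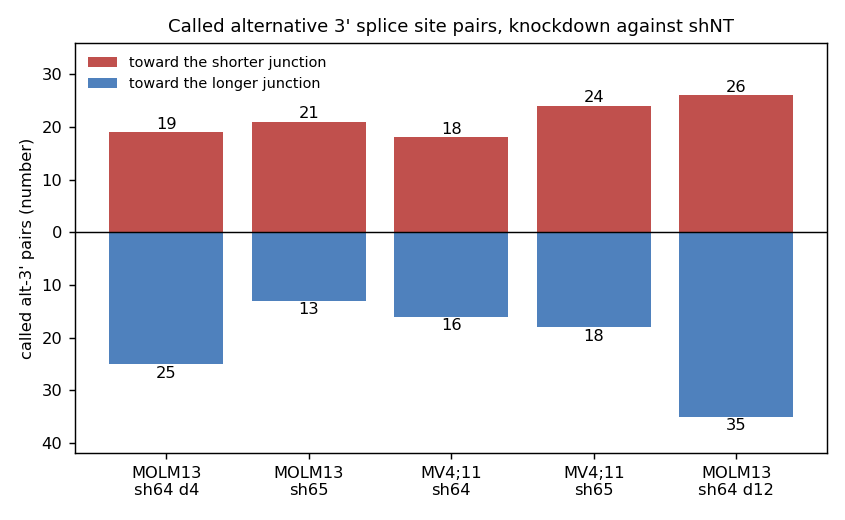
Number of called alt-3' pairs in each of the 5 knockdown comparisons (vertical axis, pairs), drawn upward where the knockdown used the nearer acceptor more and downward where it used the farther one more. Both directions appear in every comparison, from 13 to 35 pairs a direction, the chromosome Y pair included.

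Across the comparisons 172 pairs in 169 genes were called at least once, of 3825 tested at least once, and 716 had too few measured libraries for any test. Of the 172, 142 were called once, 23 in 2 comparisons, 4 in 3, 1 in 4 and 2 in all 5. Of the 30 called more than once, 26 had the same direction each time, 12 toward the shorter and 14 toward the longer junction. Both MV4;11 comparisons used the same shNT libraries. Calls shared by them alone, such as those of AFG3L1P, are therefore counted here but are not separate recurrences. Comparisons with separate controls can be set side by side. Of the pairs called at day 4 and tested at day 12, 15 were called in both with the same direction, which was 34.1% of the day 4 calls and 28.3% of the day 12 calls. Between MOLM13 at day 12 and MV4;11, both with hairpin 64, the shared calls were 11 (21.2% and 33.3%), and for hairpin 64 at day 4 and in MV4;11 they were 6 (14.3% and 18.8%). Across the 2 hairpins, hairpin 65 in MOLM13 shared 3 calls with hairpin 64 at day 4 (9.68% and 7.32%) and 3 with hairpin 64 in MV4;11. Hairpin 65 in MOLM13 and in MV4;11 shared 4 calls, and only 2 of these had the same direction.

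FAM122B, a homolog of the phosphatase PP2A inhibitor FAM122A, moved toward the nearer of 2 acceptors that lie 929 bases apart in all 5 comparisons. Its shorter-junction share was 94.3%, 97.5% and 96.4% with hairpin 64 at day 4, against 49.2%, 46.9% and 40.4% in shNT, and 98.4%, 99% and 100% at day 12, against 40%, 31.7% and 41.2%. It was 93.4%, 79.4%, 72.6% and 88.2% with hairpin 65 in MOLM13, against 35.7%, 52.8% and 54.2%. No library of a knockdown overlapped its controls, and the hairpin 65 libraries of both lines lay lower than those of hairpin 64. In MV4;11 the share was 90.8%, 91.1% and 92.5% with hairpin 64 and 82.1%, 76.6% and 74.7% with hairpin 65, against 43.8%, 17.2% and 35.7% in shNT. The difference was 50.5 ± 2.67 points at day 4 (SE, limma adjusted p = 0.0171), 61.5 ± 2.88 at day 12 (adjusted p = 0.0051), 35.9 ± 7.08 for hairpin 65 in MOLM13 (adjusted p = 0.301), and 59.2 ± 7.52 and 45.6 ± 7.80 for hairpins 64 and 65 in MV4;11 (adjusted p = 0.118 and 0.370). The call for hairpin 65 in MOLM13 was lost without its library 4, and that for hairpin 65 in MV4;11 was lost in 4 of 6 fits that left out a library. The exon at the nearer FAM122B acceptor is annotated with lengths from 141 to 2718 bases, shorter and longer than the distance. FAM122B expression was not called in any comparison.

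GIT2, an ARF GTPase-activating scaffold of focal adhesions, moved the other way in all 5 comparisons, toward the farther of 2 acceptors 1342 bases apart. Its shorter-junction share was 16.9%, 16% and 15.3% with hairpin 64 at day 4, against 44.2%, 49.3% and 37.8% in shNT, and 8.68%, 10.6% and 8.53% at day 12, against 39.9%, 46.1% and 45.6%. In MV4;11 it was 11.3%, 13.6% and 12.3% with hairpin 64 and 23.2%, 23.7% and 23.3% with hairpin 65, against 40.5%, 44.9% and 45.3% in shNT. Within each of these knockdown groups the GIT2 values lay close together, and none overlapped its controls. With hairpin 65 in MOLM13 the share was 33%, 30.7%, 16% and 20.9%, against 51.4%, 40.9% and 43.9%. The GIT2 difference was -34.6 ± 1.98 points at day 12 (limma adjusted p = 0.00874), -27.7 ± 3.18 at day 4 (adjusted p = 0.0938), -31.2 ± 1.6 for hairpin 64 in MV4;11 (adjusted p = 0.0141) and -20.2 ± 1.46 for hairpin 65 there (adjusted p = 0.0893). For hairpin 65 in MOLM13 it was -20.3 ± 5.22, a call lost in 6 of 7 fits that left out a library. Hairpin 64 itself lay -11.0 ± 0.669 points from hairpin 65 in MV4;11 (limma adjusted p = 0.0455). GIT2 expression was not called in any comparison.

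MLST8, a subunit shared by both mTOR complexes, moved toward the nearer of 2 acceptors 240 bases apart, a multiple of 3, in 4 comparisons. Its shorter-junction share was 96.8%, 96.3% and 94.6% with hairpin 64 at day 4, against 78.6%, 82.5% and 84.4% in shNT, and 93.9%, 96.1% and 96% at day 12, against 69.5%, 66.7% and 70.5%. With hairpin 65 in MOLM13 it was 91.4%, 89.6%, 92.4% and 92%, against 76.2%, 82.5% and 72.1%. All 10 knockdown libraries of MOLM13 lay above all of their controls. The MLST8 difference was 14.1 ± 1.72 points at day 4 (limma adjusted p = 0.108), 26.4 ± 1.29 at day 12 (adjusted p = 0.00576) and 14.4 ± 2.53 for hairpin 65 (adjusted p = 0.245), and with the replicate block at day 4 the unadjusted limma p was 0.0124, which misses the call. In MV4;11 the share was 96%, 96.7% and 97.5% with hairpin 64, against 86.9%, 86.9% and 77.8%, a difference of 12.9 ± 2.93 that was lost in 6 of 6 fits without a library (9.84 points without shNT library 3). Hairpin 65 there gave 96.2%, 91.9% and 97.5%, 11.4 points above shNT, and was not called. MLST8 expression was higher with hairpin 64 in MV4;11, at 16.0, 16.7 and 16.4 RPKM, against 5.97, 8.13 and 13.9 RPKM in shNT (log2 change 0.82 on log2(RPKM + 1), limma adjusted p = 0.0714, where 6.51% of genes were called), and its part in the splicing value was not tested. That expression call of MLST8 was lost in 5 of 6 fits without a library (log2 change 0.57 without shNT library 1).

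APH1A, a subunit of the gamma-secretase that cleaves Notch, moved toward the nearer of 2 acceptors 136 bases apart, which is not a multiple of 3. Here the nearer acceptor opens 1 annotated exon length, 171 bases, that reaches past the farther one, so the pair matches its class. In MV4;11 the share was 91.8%, 92.1% and 91.6% with hairpin 64 and 85%, 87.1% and 87.3% with hairpin 65, against 65.3%, 65.4% and 67.3% in shNT. These APH1A libraries varied by little within a group, and the differences were 25.8 ± 0.643 points (limma adjusted p = 0.00304) and 20.5 ± 0.925 (adjusted p = 0.0456). At day 12 in MOLM13 the share was 90.7%, 89.4% and 88%, against 76.3%, 74.1% and 74.4%, a difference of 14.4 ± 0.993 (adjusted p = 0.0143). With hairpin 64 at day 4 it was 89.7%, 86.1% and 89.8%, against 76.7%, 73.4% and 82.3%, higher in every library but with an unadjusted limma p of 0.0126, which misses the call. Hairpin 65 in MOLM13 differed by 6.22 points, under the 10 points needed.

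**Figure D2:**
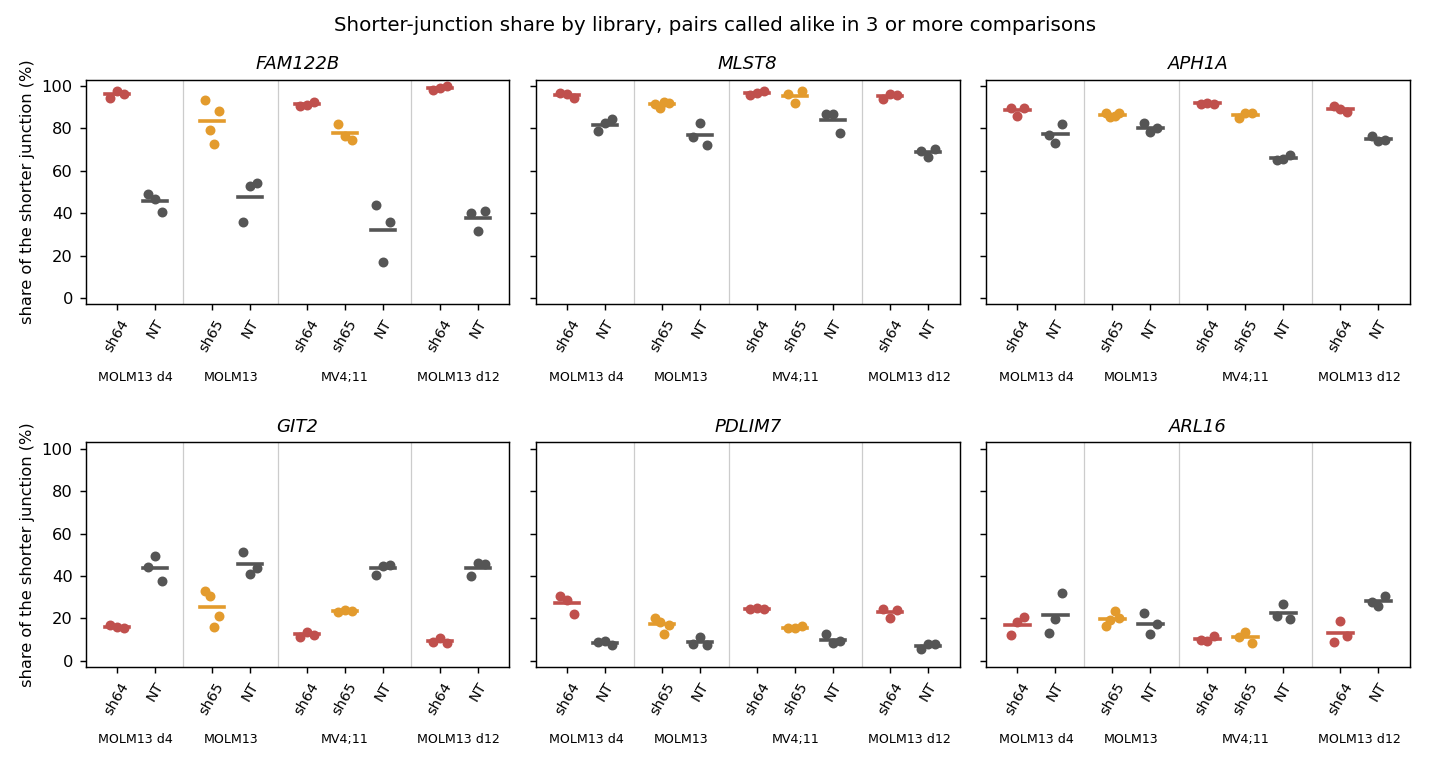
Shorter-junction share (vertical axis, percent) in each library for FAM122B, MLST8, APH1A, GIT2, PDLIM7 and ARL16, with each knockdown left of its shNT group and a bar at each group mean. In FAM122B the knockdown libraries sit between 72.6% and 100% and the shNT libraries between 17.2% and 54.2%, while in GIT2 the knockdown libraries sit below their controls.

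PDLIM7, a PDZ and LIM domain adaptor of the cytoskeleton, has acceptors 761 bases apart that open separate annotated exons. The nearer one was used at 24.3%, 20.2% and 24% at day 12, against 5.37%, 8.04% and 7.66% in shNT, a difference of 15.8 ± 1.48 points (limma adjusted p = 0.0327). At day 4 it was used at 30.7%, 28.6% and 22.2%, against 8.99%, 9.27% and 7.21%, a difference of 18.7 ± 2.52 (adjusted p = 0.135). In MV4;11 hairpin 64 gave 24.4%, 24.6% and 24.5%, against 12.4%, 8.22% and 9.15%, a difference of 14.6 ± 1.21 (adjusted p = 0.0444). The PDLIM7 groups did not overlap in these 3 comparisons, and both hairpin 65 comparisons differed the same way by 8.25 and 5.72 points, under the size needed. PDLIM7 expression was higher with hairpin 64 in MV4;11, at 57.8, 48.6 and 43.2 RPKM, against 17.1, 19.5 and 36.5 RPKM, and its part in the splicing value was not tested. That expression call of PDLIM7 was lost without hairpin library 1 and without shNT library 2.

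BMP1, the procollagen C-proteinase, and ARL16, an ARF-like GTPase, moved toward the farther acceptor. The shorter-junction share of BMP1 was 6.98%, 8.25% and 6.02% at day 12, against 39.6%, 41.2% and 32.1% in shNT (-30.6 ± 2.74 points, limma adjusted p = 0.0293). With hairpin 64 in MV4;11 BMP1 stood at 14%, 8.88% and 10.5%, against 34.8%, 37.8% and 28.1% (-22.4, adjusted p = 0.142). At day 4 BMP1 was at 6.2%, 2.05% and 4.93%, against 34.6%, 31.3% and 20% (-24.2, adjusted p = 0.236). All 9 hairpin 64 libraries lay under their controls, but the day 4 call was lost with the replicate block and in 5 of 6 fits without a library. Hairpin 65 gave BMP1 differences of -2.54 points in MOLM13 and -10.5 in MV4;11, and neither was called. ARL16 was called in both MV4;11 comparisons and at day 12. Its share was 9.88%, 9.09% and 11.5% with hairpin 64 and 11.1%, 13.4% and 8.57% with hairpin 65, against 21%, 26.7% and 19.8% in shNT of MV4;11, and 8.84%, 18.8% and 11.8% at day 12, against 27.8%, 26% and 30.7%. The ARL16 groups did not overlap, though no adjusted limma p was under 0.183 and each call was lost in 4 to 6 of the 6 fits without a library. Other genes called in 2 comparisons with 1 direction were ACAA1, GUSB, HCFC1R1, KIAA0100, POP5, PPP1R12A, RWDD2B and SLC22A15 toward the longer junction and ATP6V1G2-DDX39B, PLA2G15, PRR14 and ZWILCH toward the shorter one.

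**Figure D3:**
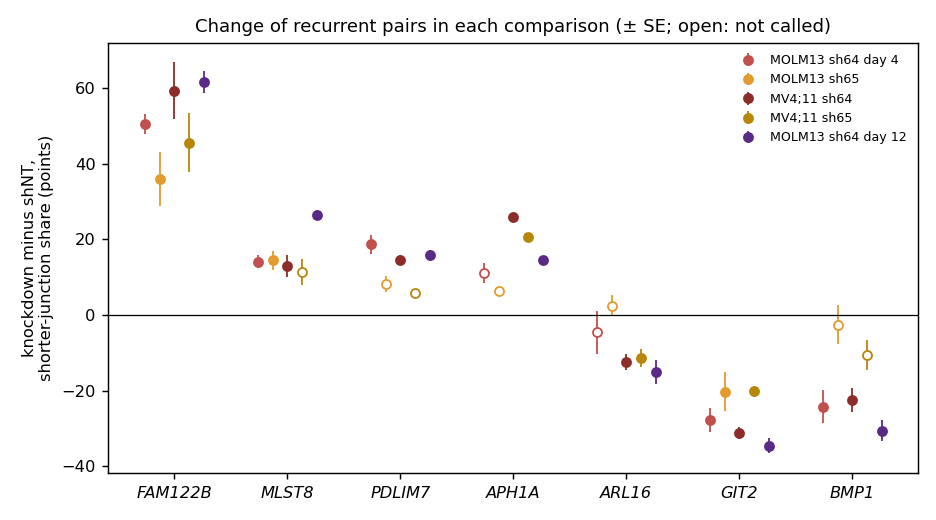
Difference in shorter-junction share, knockdown minus shNT (points, with the standard error as bars), of FAM122B, MLST8, PDLIM7, APH1A, ARL16, GIT2 and BMP1 in the 5 comparisons, filled where called and open where not. FAM122B reaches 61.5 points at day 12, GIT2 -34.6, and BMP1 is open in both hairpin 65 comparisons.

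Large changes with hairpin 64 were also seen in genes called mainly in MOLM13. CAPN3, a calpain protease known from skeletal muscle, has acceptors 1092 bases apart that open separate exons. Its shorter-junction share was 13.8%, 3.85% and 14% at day 4, against 61.2%, 56.8% and 56.4% in shNT (-47.6 ± 3.5 points, limma adjusted p = 0.035). At day 12 CAPN3 stood at 22%, 26.9% and 31.2%, against 76.3%, 67.5% and 63.7% (-42.5 ± 4.35, adjusted p = 0.0406). In these 2 comparisons every hairpin 64 library used mainly the farther CAPN3 acceptor and every shNT library mainly the nearer one, while the second MOLM13 shNT set stood at 60.8%, 68.6% and 41.2%. In MV4;11 shNT already stood lower, and hairpin 64 gave 20.5%, 4.76% and 15.6%, against 26.3%, 41.5% and 30.8%, which was not called.

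ODF2, a protein of the centriole and of sperm outer dense fibres, has acceptors 37 bases apart inside 1 annotated exon, and 37 is not a multiple of 3. Its shorter-junction share was 53.2%, 40.1% and 40.4% with hairpin 64 at day 4, against 84.4%, 88.1% and 86.6% in shNT (-41.8 ± 4.22 points, limma adjusted p = 0.0696). At day 12 ODF2 stood at 58.3%, 53.9% and 53%, against 92.1%, 91.3% and 91.6% (-36.6 ± 1.56, adjusted p = 0.0039). The shNT libraries used the nearer site almost throughout, and the knockdown libraries split between both. Hairpin 64 in MV4;11 gave 82.7%, 66.2% and 61.5%, against 84.1%, 93.9% and 88.6%, which was not called, and hairpin 65 gave differences of -3.32 and -2.05 points.

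CARM1, RALGAPB and DEPDC5 moved toward the nearer acceptor with hairpin 64. CARM1, an arginine methyltransferase of histones and splicing factors, stood at 56.7%, 47.8% and 42.1% at day 4, against 23.2%, 20.4% and 20.8% in shNT (27.4 ± 4.11 points, limma adjusted p = 0.169), and at 45.4%, 54.3% and 46.2% at day 12, against 20.2%, 14.1% and 16.5% (31.7 ± 3.17, adjusted p = 0.0385). RALGAPB, a subunit of the Ral GTPase-activating complexes, has acceptors 12 bases apart, so the choice adds or removes whole codons. It stood at 72.7%, 62.5% and 56.5% at day 4, against 34.3%, 42.1% and 26.9%, and at 68.8%, 71.4% and 62.2% at day 12, against 26.7%, 35.3% and 22.8% (39.2 ± 4.36, adjusted p = 0.0491). The RALGAPB groups did not overlap at either time, which its choice required. Its day 4 call was lost with the replicate block and in 4 of 6 fits without a library. DEPDC5, a subunit of the GATOR1 complex that restrains mTORC1, has acceptors 27 bases apart. DEPDC5 stood at 81.6%, 65.6% and 71.4% at day 12, against 28.9%, 24.1% and 16.4% (49.7 ± 5.62, adjusted p = 0.0511). With hairpin 64 in MV4;11 it stood at 58.3%, 54.5% and 75%, against 25%, 3.45% and 26.5%, a call lost in 6 of 6 fits without a library.

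**Figure D4:**
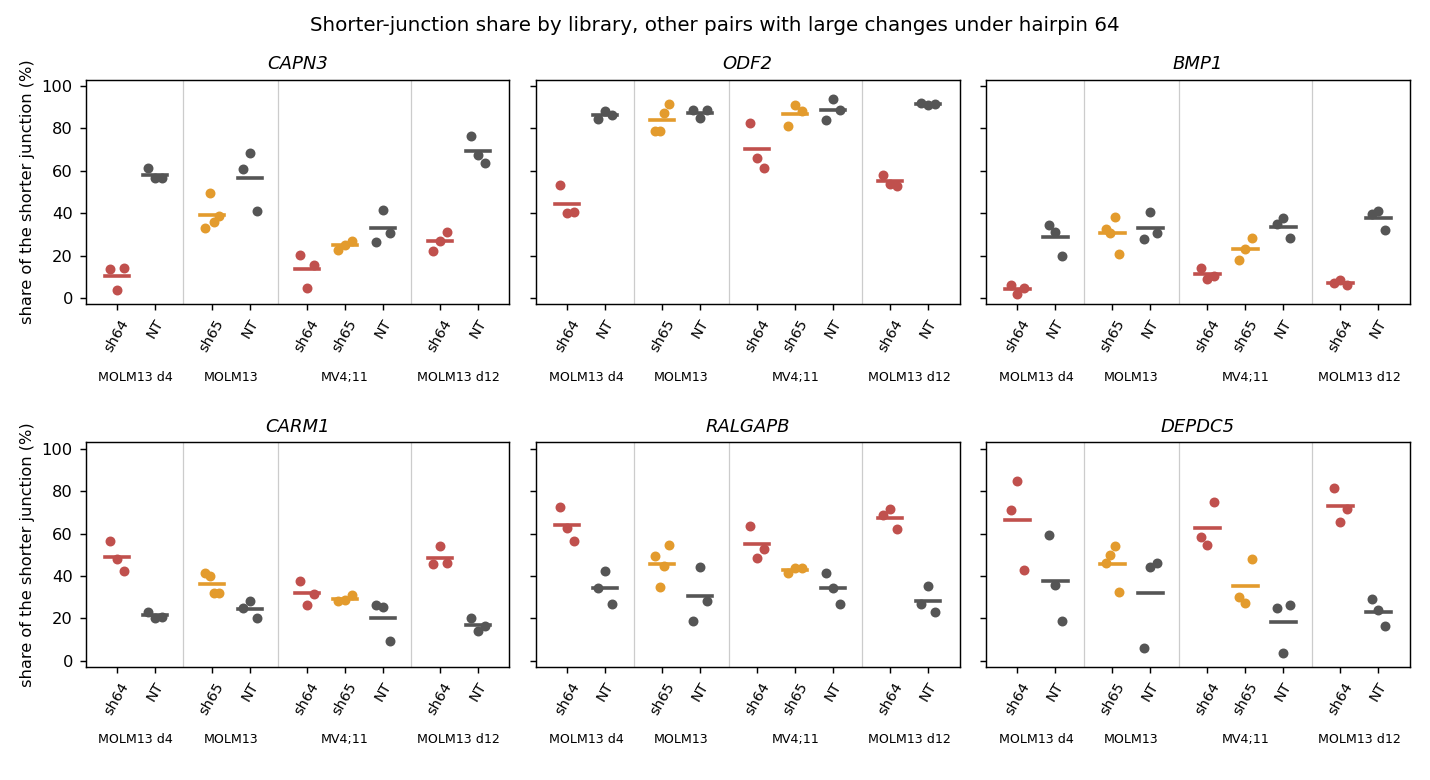
Shorter-junction share (vertical axis, percent) in each library for CAPN3, ODF2, BMP1, CARM1, RALGAPB and DEPDC5, with each knockdown left of its shNT group and a bar at each group mean. In ODF2 the hairpin 64 libraries of MOLM13 sit between 40.1% and 58.3%, all under their shNT libraries at 84.4% to 92.1%.

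Other pairs were called with hairpin 64 at day 4 and in no other comparison. POU2F2, the transcription factor Oct-2 of B cells, stood at 34.8%, 35.7% and 46.7% with hairpin 64 at day 4, against 11.5%, 8.7% and 9.09% in shNT (29.3 points, limma adjusted p = 0.119). At day 12 POU2F2 stood at 70.2%, 45.5% and 31.8%, against 2%, 12.3% and 3.12%, again without overlap but with a wider spread, a difference of 43.4 points that was not called (adjusted p = 0.272). PTGIR, the prostacyclin receptor, stood at 51.1%, 59% and 48.1%, against 80%, 79.2% and 81.6% (-27.5, adjusted p = 0.0932), and differed by 9.31 points the other way at day 12. The PTGIR groups did not overlap at day 4, which the choice of this pair required. SLC15A4, a lysosomal peptide and histidine transporter, differed by -25.7 points at day 4 (adjusted p = 0.338), and the noncoding or unnamed loci AP000525.9 and NOP14-AS1 by 32.1 and 30.02. These 3 day 4 calls were lost with the replicate block.

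In the other comparisons the largest changes were of like size but rested on wider spread. U2AF1L4, a paralog of the U2AF1 subunit that reads the acceptor AG, moved toward the nearer acceptor with hairpin 65 in MV4;11. Its share was 85.2%, 81% and 77.1%, against 36.4%, 50% and 52.6% in shNT (34.8 ± 5.29 points, limma adjusted p = 0.323). The groups did not overlap, which its choice required. The pseudogene AFG3L1P stood at 64.5%, 81.8% and 85.3% with hairpin 64 and 75%, 87.5% and 79.3% with hairpin 65 in MV4;11, against 50%, 50% and 48.4%. With hairpin 64 in MV4;11 CEACAM21, a carcinoembryonic antigen family member, stood at 33.3%, 24.6% and 25.4%, against 70.8%, 55.4% and 52.3% (-31.7). With hairpin 65 in MOLM13 the kinase MTOR stood at 12.3%, 2.27%, 11% and 2.5%, against 33.3% and 63.2% in the 2 shNT libraries that measured it (-41.2). The other shNT groups averaged 11.25% (MOLM13 day 4 set), 7.64% (day 12) and 3.20% (MV4;11) for MTOR, beside 7.01% with hairpin 65. The second shNT set was thus the unlike group. Other changes with hairpin 65 in MOLM13 were 36.7 points for AC016757.3, -33.8 for AC093616.4 and -26.4 for TMUB2. For TMUB2 the second shNT set was again unlike, at a mean of 44.8%. The shNT groups of day 4, day 12 and MV4;11 averaged 19.4%, 20.3% and 20.3%, beside 18.4% with hairpin 65. For AC016757.3 and AC093616.4 hairpin 65 averaged 48.0% and 48.9%, and the day 4 shNT 32.7% and 85.4%. HIST1H2BN differed by -47.8 with hairpin 64 and RBM19 by -24.7 with hairpin 65 in MV4;11, both with 2 measured libraries a group. Fits without a library lost these calls in 5 of 6 cases for AFG3L1P with hairpin 64, 4 of 6 for CEACAM21, 4 of 5 for MTOR, 4 of 7 for AC093616.4, 3 of 7 for TMUB2, 2 of 7 for AC016757.3 and 1 of 6 for U2AF1L4. For HIST1H2BN and RBM19 no measured library could be left out.

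Another 4 pairs were called in opposite directions, each time with hairpin 65 in MV4;11 on one side. CTTN, the actin-binding cortactin, stood at 0%, 0% and 0% with hairpin 64 at day 4, against 13% and 11.8% in the 2 shNT libraries that measured it (limma adjusted p = 0.023), and at 24.3%, 20.8% and 33.3% with hairpin 65 in MV4;11, against 8.33%, 5% and 0%. CTTN RNA was low, at a mean of 1.26 RPKM with hairpin 64 at day 4, against 1.57 in shNT. With hairpin 65 in MV4;11 it was 1.71 RPKM, against 0.831. The adjusted p at day 4 thus rests on values of 0% and on 2 shNT values of a weakly expressed gene. At day 12 CTTN RNA was called lower with hairpin 64, at a mean of 0.528 RPKM, against 1.35. That call was lost without shNT library 1, and its part in the splicing value was not tested. CSF2RB, the beta chain shared by the IL-3 and GM-CSF receptors, stood at 16.9%, 19.4% and 16.1% at day 12, against 3.77%, 5.66% and 7.41%, and at 10.5%, 14.3% and 10% with hairpin 65 in MV4;11, against 25%, 33.3% and 25%. TRMT44, a tRNA methyltransferase, stood at 85.4%, 94.7%, 72% and 90.3% with hairpin 65 in MOLM13, against 64%, 57.9% and 60%. In MV4;11 the same hairpin gave TRMT44 values of 57.1%, 57.8% and 52.5%, against 73.3%, 82.8% and 89.5%, a call of the other sign. The other MOLM13 shNT libraries stood at 86.4%, 77.8% and 70% in the day 4 set and 91.7%, 58.2% and 77.1% at day 12. These overlap the hairpin 65 values, so the TRMT44 rise in MOLM13 holds only against the second shNT set. TPT1-AS1, an antisense RNA, differed with hairpin 65 by 21.7 points in MOLM13, a call lost in 5 of 7 fits without a library, and by -27.7 in MV4;11, with 2 measured libraries a group. In MOLM13 the TPT1-AS1 share was 82.9%, 86.3%, 80% and 86.7%, against 50%, 66.7% and 70%. Other MOLM13 shNT libraries stood at 97.1% and 87.0% in the day 4 set and 76.9%, 73.9% and 96.7% at day 12. CTTN and CSF2RB were chosen after their values were seen. Fits without a library lost the TRMT44 call in 6 of 7 cases in MOLM13 and 4 of 6 in MV4;11, and the MV4;11 calls of CTTN and CSF2RB in 4 and 3 of 6.

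Tandem acceptors 3 bases apart were called at a lower share than the whole class in 4 comparisons. They gave 4 pairs (0.611% of those tested) with hairpin 64 at day 4, 7 (1.07%) with hairpin 65 in MOLM13, 4 (0.585%) and 5 (0.723%) with hairpins 64 and 65 in MV4;11 and 8 (1.13%) at day 12. The exception was hairpin 65 in MOLM13, against 0.998% of all alt-3' pairs, and these differences were not tested. Of those hairpin 65 calls, 6 of 7 in MOLM13 and 5 of 5 in MV4;11 were toward the nearer AG, and no test of that balance was made. PLEKHG2, a guanine nucleotide exchange factor, stood at 54.7%, 54% and 52.2% for the nearer AG with hairpin 64 in MV4;11, against 23.5%, 31.6% and 26.4% in shNT (26.4 ± 2.36 points, limma adjusted p = 0.0537). Hairpin 65 there gave 13.2 points, not called. In MOLM13 PLEKHG2 differed by -1.10 at day 4, -11.2 at day 12 and -5.15 with hairpin 65, none called. The MOLM13 shNT groups averaged 59.6%, 57.8% and 57.6% in that order, near the MV4;11 hairpin 64 values. EEF1D, a subunit of the elongation factor 1 exchange complex, moved toward the farther AG, with 36.1%, 35.3% and 33% at day 12, against 49%, 46.9% and 51% (-14.2 ± 1.42, adjusted p = 0.0386), and 17.6%, 17.1% and 19.9% at day 4, against 32.4%, 26.8% and 29% (-11.2, adjusted p = 0.187). Neither gene's groups overlapped in its called comparisons. The day 4 call of EEF1D was lost with the replicate block and in 4 of 6 fits without a library. COL18A1, the collagen XVIII chain, stood at 9.09%, 5.88% and 0% at day 12, against 29.2%, 37.5% and 28.6% (-26.8, adjusted p = 0.0821). Among the rest, LINC00263 differed by -24.5 with hairpin 64 and ZNF773 by 22.8 with hairpin 65 in MV4;11, and ZBTB37 by 23.2 at day 12. The RNA of LINC00263 was also lower with hairpin 64 in MV4;11 (log2 change -0.69), and its part was not tested. Fits without a library lost the LINC00263 splicing call in 5 of 6 cases, that of ZNF773, measured in 2 shNT libraries, in 3 of 4 and that of ZBTB37 in 1 of 4. DMPK, the kinase gene whose expanded CUG repeat holds MBNL proteins in myotonic dystrophy, has acceptors 4 bases apart. It stood at 57.1% and 55.6% with hairpin 64 at day 4, against 33.3% and 30%, with 2 measured libraries a group, and was chosen after its values were seen. At day 12 DMPK stood at 35%, 42.1% and 80%, against 92.9%, 54.5% and 63.6%, groups that overlapped and differed the other way by -18.0 points, which was not called.

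The called share varied with the distance between the acceptors, though not in the same way in each comparison. Pairs more than 150 bases apart were called at 2.32% with hairpin 64 at day 4 (7 shorter, 13 longer) and 3.33% at day 12 (11 shorter, 20 longer), against 1.28% and 1.64% of all alt-3' pairs. In MV4;11 they were called at 1.40% with hairpin 64 and 1.28% with hairpin 65, and in MOLM13 with hairpin 65 at 1.06%. With hairpin 65 other classes led, 7 to 30 bases in MOLM13 (2.1%) and 31 to 150 bases in MV4;11 (1.52%). Pairs whose nearer exon can end before the farther acceptor were also called at a higher share. They were called in 20 of 737 (2.71%) at day 4, against 24 of 2691 (0.892%) of the other pairs, and in 28 of 793 (3.53%) at day 12, against 33 of 2921 (1.13%). With hairpin 65 in MOLM13 the shares were 9 of 727 (1.24%), against 24 of 2677 (0.897%), and in MV4;11 12 of 730 (1.64%), against 22 of 2759 (0.797%), with hairpin 64 and 11 of 733 (1.5%), against 31 of 2779 (1.12%), with hairpin 65. This split was chosen after seeing the data and was not tested. It turned round with the replicate block in MV4;11 (0.838%, against 0.954%, for hairpin 64 and 0.691%, against 0.733%, for hairpin 65), and at 1 left-out library each in the MOLM13 hairpin 65 set (hairpin library 2: 0.687%, against 0.969%) and both MV4;11 sets (hairpin 64 library 1: 1.12%, against 1.22%; for hairpin 65, shNT library 1: 1.26%, against 1.30%). For MOLM13 with hairpin 64 it kept its order with the block, at 2.25%, against 0.503%, at day 4 and 1.52%, against 0.862%, at day 12.

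**Figure D5:**
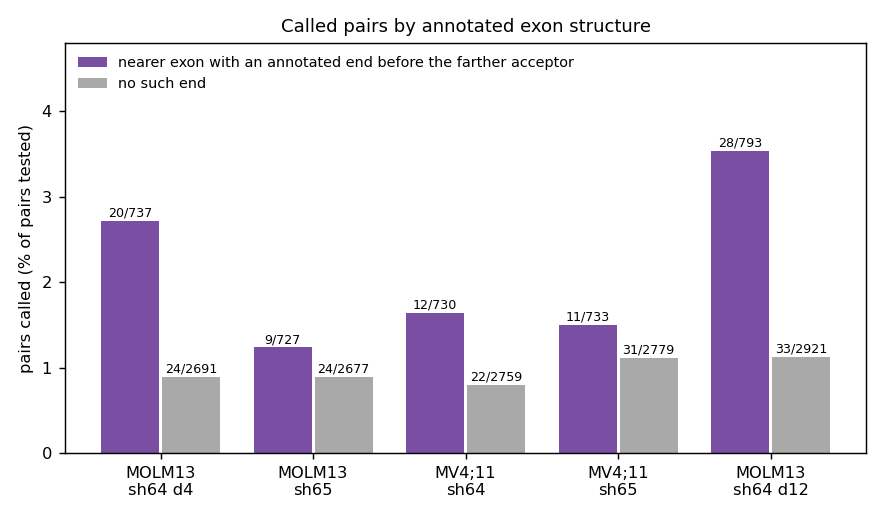
Called alt-3' pairs as a percentage of those tested (vertical axis) in the 5 comparisons, for pairs whose nearer exon has an annotated end before the farther acceptor and for all other pairs, with the numbers called and tested above each bar. At day 12 the bars stand at 3.53% and 1.13%.

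Features that the event class did not use were set side by side for pairs called in each direction, and none of these differences was tested. The 84 pairs called only toward the shorter junction had a median distance of 36 bases and 22.6% tandem acceptors, and their median share in shNT was 45.5%. The 84 called only toward the longer junction had a median distance of 81 bases, 9.52% tandem acceptors and a median share in shNT of 75.9%. All 3825 tested pairs stood at 45 bases, 19.3% and 77.9%. The motif NGCN with C or T at each N, counted with overlaps on the transcript strand alone in the 100 bases before the nearer acceptor, averaged 1.65 in pairs called toward the shorter junction, 1.37 in those called toward the longer one and 1.35 ± 1.34 (SD) in all tested pairs. At least 1 stood in 76.2%, 66.7% and 69.0% of those windows. These are descriptions of groups chosen by their change, and the shNT share enters that change.

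Few alt-3' pairs in genes of the splicing machinery and of leukemia programs could be tested. Of all alt-3' pairs, 0.973% to 1.64% were called, so the few calls here say nothing about these genes as a set. Of 14 gene lists, 3 held a called pair. The erythroid and megakaryocytic list and the lymphoid list had 0 pairs tested. In the list of 24 genes for 3' splice site recognition and the second catalytic step, 7 genes with 8 pairs could be tested and only U2AF1L4 was called, with hairpin 65 in MV4;11. For SR and hnRNP proteins, 9 genes with 11 pairs in MOLM13 and 10 in MV4;11 gave 0 calls by limma in the 5 comparisons. KIT, the stem cell factor receptor, moved at a tandem acceptor with hairpin 65 in MV4;11, at 11.8%, 15% and 15.4%, against 0% in both shNT libraries that measured it (14.0, adjusted p = 0.264). For expression, limma called 0 of the 24 genes for 3' splice site recognition in any comparison, where it called 2.42%, 3.24%, 6.51%, 3.63% and 5.52% of all genes, with day 12 last. At an unadjusted p under 0.05 the numbers were 0 with hairpin 64 at day 4, 2 with hairpin 65 in MOLM13, 7 and 2 with hairpins 64 and 65 in MV4;11 and 10 at day 12, of which 6 were higher and 4 lower. Their median log2 change lay between -0.04 and 0.09, beside 0.00 to 0.06 for all tested genes.

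Responses were compared directly where the design allowed it. The change of hairpin 64 at day 12 differed from that at day 4 in 25 of 3397 pairs (17 toward the shorter junction, 8 toward the longer one), where limma called 0.705% of all event types, and 0 pairs passed an adjusted p of 0.05 (172 had an unadjusted p under 0.05). The change of hairpin 64 in MV4;11 differed from that in MOLM13 in 24 of 3279 pairs (12 each way, background 0.776%), with 0 under an adjusted p of 0.05 and 197 under an unadjusted 0.05. Hairpin 64 and hairpin 65 in MV4;11 differed in 35 of 3588 pairs, 9 higher and 26 lower in the shorter junction with hairpin 64 (background 1.02%). GIT2 was 1 of the 2 pairs among them under an adjusted p of 0.05.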

How the data were processed

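RNA-seq libraries were aligned by the authors with STAR to GRCh37 (hg19), as the processing notes in the labels and the study's methods say, and splicing was quantified with AltAnalyze. The deposited splicing table gives PSI as a fraction from 0 to 1 per junction pair and library, and the deposited expression table gives RPKM per gene. Neither holds read counts, so the depth behind a value is unknown. A further column of the splicing table holds the authors' own comparison and was not used. 0 columns of values lacked a sample. Columns of the second MOLM13 shNT set name the group but not the library.

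Each junction pair was kept once and its PSI turned to the shorter junction. limma 3.58.1 (R 4.3.3) compared each knockdown with its own shNT over every event type, for events with values in over 50% of the libraries in both groups, called at p of at most 0.01 and a difference over 0.1, after the study's methods, with Benjamini-Hochberg adjustment beside it. Expression was tested with limma on log2(RPKM + 1) for genes of at least 1 RPKM, called at p of at most 0.01 and 1.5-fold. Scripts were tested on simulated data. Acceptor sequence and annotation came from the GRCh37 genome and GENCODE 44 lifted to it, with Python 3.11.15, pandas 2.3.3 and pysam 0.24.0. The members and gene lists were chosen with earlier results of these data known. Named genes were the largest called changes without overlap in each direction, those called in most comparisons, the largest tandem changes and called genes of the lists. At day 4, libraries with the same number deviated together (r = 0.168, 0.105 and 0.300 across events), so blocked values stand beside those results. The highest r with a library of another number was 0.103, 0.117 and -0.166. Only number 3 was thus clearly paired. Alternatives were another size or p threshold, every library measured, arcsine values, a robust variance trend, the replicate block, all MOLM13 shNT libraries, another pseudocount and leaving out each library. PSI values of 6 pairs on chromosome Y, and a few other results, are not reported here.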

Additional observations from a re-analysis of the deposited data

Results flagged for a closer look

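Within the 4 libraries of hairpin 65 in MOLM13, 1 library stood far from the others in 1 named pair. For TMUB2, a ubiquitin-like membrane protein, the shorter-junction share was 23.3%, 22.4%, 23.1% and 4.76%, and the gap to the nearest library was 0.955 of the whole range. The limit used, a gap of 0.829 of the range, is passed by chance in about 1 group in 20, and all named pairs measured in these 4 libraries were screened.

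Differences between responses were called by limma for 11 named pairs, and GIT2 alone among them passed an adjusted p of 0.05. PDLIM7 also passed it for hairpin 64 minus hairpin 65 in MV4;11 (8.87 ± 0.285 points, limma adjusted p = 0.0138). It missed the call because the difference was under 10 points. Between lines, the change with hairpin 64 in MV4;11 minus that in MOLM13 was -35.6 points for AP000525.9, 14.8 for APH1A (adjusted p = 0.301) and 28.4 for CAPN3 (adjusted p = 0.646). Between days in MOLM13, the change at day 12 minus that at day 4 was 12.4 points for MLST8 (adjusted p = 0.245) and 36.8 for PTGIR (adjusted p = 0.209). Between hairpins in MV4;11, hairpin 64 minus hairpin 65 was -18.5 points for CEACAM21, -20.9 for CTTN, 13.7 for FAM122B (adjusted p = 0.261), -11.0 for GIT2 (adjusted p = 0.0455), 16.2 for TRMT44 and -21.8 for ZNF773.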

How the results depend on the processing

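Counts of called pairs moved with thresholds and with single libraries, and the depth behind a PSI is unknown. Given as shorter and longer, a 20-point size left 10 and 9 pairs at day 4, 9 and 7 for MOLM13 with hairpin 65, 6 and 10 with hairpin 64 and 10 and 5 with hairpin 65 in MV4;11, and 10 and 9 at day 12. An adjusted p left 1 and 2, 0 and 0, 2 and 2, 1 and 1, and 8 and 10 in that order. A robust variance trend gave 16 longer calls at day 4 and 11 shorter ones with hairpin 64 in MV4;11, and asking for every library gave 11 longer ones with hairpin 65 in MV4;11. Leaving out 1 library gave 12 to 24 and 17 to 27 at day 4 (12 shorter without hairpin library 2). For hairpin 65 in MOLM13 it gave 13 to 39 and 10 to 34 (39 and 34 without one library of the second shNT set, 13 without another). It gave 12 to 20 and 16 to 26 with hairpin 64 in MV4;11 (26 longer without shNT library 3), 15 to 27 and 12 to 18 with hairpin 65 there (15 shorter without shNT library 2 or 3), and 19 to 25 and 23 to 32 at day 12 (23 longer without shNT library 1). Called expression values of host genes (6) and of MBNL1 (4) numbered 10, against 16 with a pseudocount of 0.1 and 8 to 18 without a library (18 without MV4;11 shNT library 3).

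With the replicate number as a block, day 4 gave 8 shorter calls and host genes 16. In the other sets the numbers did not pair the libraries (r at most 0.00909), and the block gave 13 shorter calls with hairpin 65 in MV4;11 and 17 and 20 at day 12. No paired fit was made for hairpin 65 in MOLM13, whose control columns carry no number. Of 655 values of named pairs under the alternatives, 492 kept their call, 163 lost it and 0 changed direction. The groups did not overlap in any called comparison of a named pair. Leaving out or blocking libraries, arcsine values and another variance trend therefore could not turn the direction. The count of 0 is thus no sign of robustness.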
